A study of Mus musculus with 12 samples.

Results

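The 77 genes described here carry the names of mouse mitochondrial ribosomal proteins. They were chosen by name alone, as every listed gene symbol that starts with Mrpl or Mrps and goes on with a number. They are 77 of 48709 listed genes, 48 named for the large subunit and 29 for the small subunit, and all 77 were among the 17833 genes that the authors tested. RNA was measured in 12 libraries of sorted CD8 T cells from tumour-draining lymph nodes, 3 libraries in each of 4 groups. All mice were wild-type C57BL/6 animals of postnatal day 91 that carried TRAMP-C2, a transplantable mouse prostate tumour line. The first group received anti-CTLA-4, the second anti-PD-1 DANA, whose Fc part was mutated so that Fc receptors do not bind it, the next both antibodies together (Combo), and the last an isotype control antibody. CTLA-4 and PD-1 are inhibitory receptors of T cells. The sample labels place treatment on days 3, 6 and 9, while the series text has days 3, 6 and 8. Nodes were taken on day 28, which the labels count from treatment and the series text from tumour injection. Sorted cells were live, CD45+CD3+CD8+, and stained for Spas-1, an antigen of this tumour, but not for Spas-2. Cells of 5 mice were pooled per group and the pool was split into 3 libraries, so a p-value measures the spread between technical splits, and treatment and pool cannot be told apart.

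The mitochondrial ribosome translates the few proteins that mitochondrial DNA encodes, which are core subunits of the respiratory chain and ATP synthase. Its RNAs come from mitochondrial DNA, while its proteins are encoded in the nucleus, made in the cytosol and imported. Activated T cells are known to build up mitochondrial mass and mitochondrial translation. Mrps18a and Mrps30 lie in the large subunit despite their names.

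Each treatment has its own deposited table, which holds fitted log2 fold changes against isotype (positive where treated cells are higher) and the larger of the 2 group means in RPKM, reads scaled by exon length and library size. These fold changes are the authors' fitted values and, for genes almost without reads in isotype, are no measured ratio. A call is a false discovery rate under 0.05 in the authors' deposited tables. The 3 comparisons share the isotype libraries, so their values are given side by side and are not independent. Each ± on a log2 fold change is a standard error implied by the deposited p-value. Library sizes recovered from the steps of low means were 14729713 to 29583827 reads in anti-CTLA-4, 24233466 to 31943900 in anti-PD-1 DANA, 24594651 to 42556869 in Combo and 23973359 to 32867235 in isotype. Whole reads per library were recovered for 42 of 77 members. All 9 markers of CD8 T cells were detected and none was called in the authors' deposited tables, with larger means of 81.8 to 486 RPKM. Among markers of other cells, Ms4a1 (1 of 8 B cell markers, log2 fold change 6.03) and Cd4 (8.23) were called higher under anti-CTLA-4 in the authors' deposited table. The summed larger means of the 8 B cell markers were 998 RPKM in the anti-CTLA-4 table, 508 in the anti-PD-1 DANA table and 472 in the Combo table deposited by the authors, with median log2 fold changes of 0.78, -0.55 and 0.10. The larger mean of Cd4 was 2.48 RPKM in the anti-CTLA-4 table, 0.0065 in the anti-PD-1 DANA table and 0.0053 in the Combo table deposited by the authors. Of 4 tested myeloid markers, C1qa was called lower under anti-CTLA-4, Csf1r higher under anti-PD-1 DANA and Lyz2 lower under Combo, in the authors' deposited tables. The 4 had median log2 fold changes of -0.99997, -0.42 and -1.70 and summed larger means of 144, 112 and 116 RPKM in that order in the authors' deposited tables. None of 3 erythroid markers, of 1 tested NK marker (Klrb1c) and of 2 tested epithelial markers was called in the authors' deposited tables. Their median log2 fold changes in the same order were 6.96, -0.60 and -0.42 for erythroid, 1.83, 6.24 and -0.22 for NK, and 2.17, 2.97 and -1.39 for epithelial markers in the authors' deposited tables. Their summed larger means in the same order of tables were 18.5, 0.0948 and 3.13 RPKM for erythroid, 0.0708, 1.39 and 0.00929 RPKM for NK, and 1.71, 4.74 and 0.0149 RPKM for epithelial markers in the authors' deposited tables. Ncr1 (NK cells) and Krt8 (epithelium) were at 0 in every one of the authors' deposited tables. The part of other cells in the results was not tested. In such bulk samples, fewer cells of a type and less RNA per cell cannot be told apart.

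Few of the 77 genes passed the test, and most of those that did were higher in treated cells. Against isotype, 5 of 77 members (6.49%) were called in anti-CTLA-4, all higher, where 4.23% of all tested genes were called, 2.74% higher and 1.49% lower, in the authors' deposited table. For anti-PD-1 DANA the authors' deposited table called 6 of 77 members (7.79%), all higher, against 3.75% of all tested genes, 2.43% higher and 1.32% lower. For Combo it called 9 of 77 members (11.7%), 7 higher and 2 lower, against 7.53% of all tested genes, 3.94% higher and 3.59% lower, in the authors' deposited table. Calls were more frequent at these genes' level of expression, and the members' shares lay below those of tested genes whose larger mean fell between the members' 10th and 90th percentile, which were 9.10% under anti-CTLA-4, 8.18% under anti-PD-1 DANA and 16.4% under Combo from the authors' deposited tables. In all 12 members were called in at least 1 comparison of the authors' deposited tables, and 2 of them, Mrpl3 and Mrps18a, in all 3. At an unadjusted p under 0.05 the authors' deposited tables held 15 members (19.5%) under anti-CTLA-4, 16 (20.8%) under anti-PD-1 DANA and 18 (23.4%) under Combo, beside 22.9%, 23.1% and 23.2% of all tested genes in the same order.

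The median log2 fold change of the 77 members was -0.51 under anti-CTLA-4, -0.12 under anti-PD-1 DANA and 0.34 under Combo in the authors' deposited tables. All tested genes had medians of -0.62, -0.45 and -0.42 for the same 3 comparisons in the authors' deposited tables. Relative to those, the members' median lay 0.11 higher under anti-CTLA-4, 0.34 higher under anti-PD-1 DANA and 0.76 higher under Combo, and 42, 45 and 49 of 77 members lay above the median of all tested genes. The implied standard error of a single member had a median of 1.54, and its lowest value was 0.87, for Mrpl30. By subunit, the 48 Mrpl genes and the 29 Mrps genes had medians of -0.51 and -0.43 under anti-CTLA-4, -0.12 and -0.12 under anti-PD-1 DANA, and 0.43 and 0.28 under Combo in the authors' deposited tables. The sign of the median depended on the scaling: shifted to library size, all-gene medians became 0.33 under anti-CTLA-4, 0.36 under anti-PD-1 DANA and -0.31 under Combo, and the members' medians 0.44, 0.70 and 0.45. The shift was 0.94 under anti-CTLA-4, 0.82 under anti-PD-1 DANA and 0.11 under Combo on the log2 scale. Of members whose mean was known in both groups and higher in treated cells in RPKM, 10 of 12 under anti-CTLA-4, 9 of 13 under anti-PD-1 DANA and 0 of 6 under Combo had a negative log2 fold change in the authors' deposited tables.

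**Figure D1:**
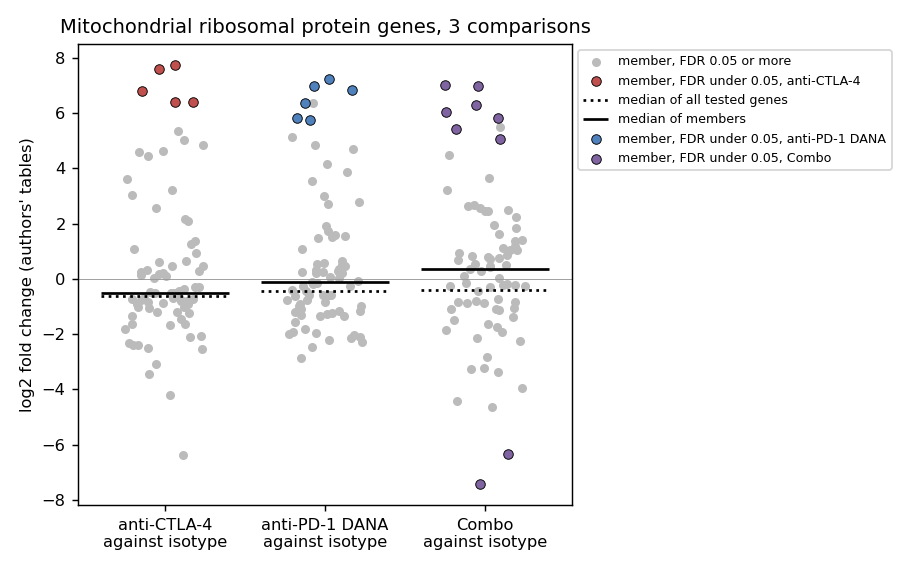
Log2 fold change of each of the 77 members against isotype in each of the 3 comparisons from the authors' deposited tables, with called members marked and the median of all tested genes drawn. Most members lie close to the middle, and the called ones lie far out, between -7.45 and 7.75. Some members without a call lie far out too, such as Mrps31 at 6.38 under anti-PD-1 DANA and Mrps22 at -6.37 under anti-CTLA-4.

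Promoters are shown for 4 called members that stand for the patterns described below: Mrpl3 and Mrps18a, called in every comparison, Mrpl55, called higher under each single antibody, and Mrpl27, called lower in Combo. Each runs from 250 bases before the RefSeq gene start to 50 bases after it, 5′ to 3′, from RefSeq on GRCm38.p6. Capitals mark a match to the ETS motif CCGGAAGT, bound by factors such as GABP, or to the YY1 motif AAGATGGC. Both factor families, with NRF1, are known regulators of nuclear genes for mitochondrial proteins. The windows lie on the + strand at chr9:105053018-105053317 (Mrpl3), chr17:46110754-46111053 (Mrps18a), chr11:59202236-59202535 (Mrpl55) and chr11:94653541-94653840 (Mrpl27).
Mrpl3: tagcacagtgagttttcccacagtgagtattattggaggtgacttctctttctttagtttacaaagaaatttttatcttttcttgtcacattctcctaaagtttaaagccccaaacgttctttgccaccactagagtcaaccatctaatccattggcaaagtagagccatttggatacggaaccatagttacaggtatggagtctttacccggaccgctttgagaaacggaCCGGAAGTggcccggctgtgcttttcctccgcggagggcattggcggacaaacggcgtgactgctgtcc
Mrps18a: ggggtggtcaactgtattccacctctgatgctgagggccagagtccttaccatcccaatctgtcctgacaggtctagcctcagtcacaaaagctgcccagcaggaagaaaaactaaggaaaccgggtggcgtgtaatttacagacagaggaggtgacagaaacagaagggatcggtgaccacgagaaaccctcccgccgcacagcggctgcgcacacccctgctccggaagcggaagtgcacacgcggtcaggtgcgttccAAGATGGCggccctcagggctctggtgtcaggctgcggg
Mrpl55: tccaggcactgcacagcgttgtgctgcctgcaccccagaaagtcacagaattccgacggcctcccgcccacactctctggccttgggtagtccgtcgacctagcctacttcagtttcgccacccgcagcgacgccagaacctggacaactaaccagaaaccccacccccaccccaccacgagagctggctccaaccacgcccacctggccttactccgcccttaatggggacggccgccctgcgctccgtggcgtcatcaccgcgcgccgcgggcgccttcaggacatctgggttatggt
Mrpl27: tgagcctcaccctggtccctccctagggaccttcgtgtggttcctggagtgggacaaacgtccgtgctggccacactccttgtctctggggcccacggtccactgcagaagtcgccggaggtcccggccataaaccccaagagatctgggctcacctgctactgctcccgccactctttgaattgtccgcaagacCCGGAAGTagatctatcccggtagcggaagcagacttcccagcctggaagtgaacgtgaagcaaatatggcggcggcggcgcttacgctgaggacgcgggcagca
The RefSeq start of the 3 genes with a match lies downstream of their start in the deposited tables. Mrpl3 holds an ETS match that starts 19 bases before its RefSeq start, which is 10 bases after its start in the deposited tables. For Mrpl27 the ETS match starts 55 bases before the RefSeq start and 31 bases before the deposited one. The YY1 match of Mrps18a starts at base 12, with the RefSeq start as base 1, and 29 bases after the deposited start. Mrpl55 holds none of the 3 motifs searched on either strand. A match describes the letters and shows no binding.

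Across the family, 68 of 77 members had a promoter in the RefSeq table, and 29 of these 68 (42.6%) held at least 1 of the 3 motifs on either strand, beside 15.2% of tested genes. The ETS motif was present in 12 members (17.6%), against 7.83% of tested genes and 3.89% of all promoters. YY1's motif was likewise in 12 members (17.6%), against 4.68% of tested genes and 2.75% of all promoters. The NRF1 motif CGCATGCG, which is its own reverse complement, was in 7 members (10.3%), against 3.81% of tested genes and 1.87% of all promoters. A promoter with several motifs counts once in the first share and under each motif in the others. Of the 12 called members, Mrpl48, Mrpl3 and Mrpl27 held the ETS motif, Mrpl36, Mrps18a and Mrpl49 the YY1 motif, and 5 held none, while Mrpl13 was not in the table. Calls of either direction thus stood beside both motifs. By position, 18 of 77 members (23.4%) had an upstream protein-coding neighbour on the opposite strand in GENCODE M21, against 9.38% of tested protein-coding genes. Such a neighbour starts within 1000 bases upstream of the member's start and runs the other way. Pairs that overlap at their starts are not counted. Mrpl49 and Fau, which encodes a cytosolic ribosomal protein, start 59 bases apart, and Mrpl32 and the proteasome gene Psma2 start 75 bases apart.

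Mrpl3 and Mrps18a, both proteins of the large subunit, rose under every treatment. Mrps18a (17:46110986-46128910) had 1425, 451 and 521 reads in the anti-CTLA-4 libraries, 413, 381 and 1082 in the anti-PD-1 DANA libraries, and 844, 5 and 598 in the Combo libraries. A single Combo library was thus near 0 while each of the other treated libraries held 381 or more. The authors' deposited tables give Mrps18a means of 9.58 RPKM in anti-CTLA-4, 5.87 in anti-PD-1 DANA and 3.5 in Combo, which leaves at most 3.5 RPKM for isotype. Its log2 fold changes in the authors' deposited tables were 6.42 ± 1.54 under anti-CTLA-4 (false discovery rate 0.00774), 5.84 ± 1.54 under anti-PD-1 DANA (0.0198) and 5.82 ± 1.54 under Combo (0.0119). Mrpl3 (9:105053239-105079888), a protein near the peptidyl transferase centre of the ribosome, had log2 fold changes of 6.79 ± 1.54 under anti-CTLA-4 (false discovery rate 0.00471), 7.22 ± 1.54 under anti-PD-1 DANA (0.00275) and 5.06 ± 1.54 under Combo (0.0416) in the authors' deposited tables. Its mean was 5.38 RPKM in anti-CTLA-4, 6.63 in anti-PD-1 DANA and at most 0.913 in Combo and isotype in the authors' deposited tables. Reads per library could not be recovered for Mrpl3. Centred at tested genes of the same level, the Combo call of Mrpl3 was lost (log2 fold change 3.60, false discovery rate 0.343).

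Mrps18a has a pair of paralogs, and these did not pass the test. Mrps18b and Mrps18c encode small subunit proteins, and Mrps18b was picked for this comparison after its values were seen. Mrps18b had an isotype mean of 19.9 RPKM and log2 fold changes of -1.003 ± 1.39 under anti-CTLA-4, -1.17 ± 1.39 under anti-PD-1 DANA and -0.83 ± 1.39 under Combo in the authors' deposited tables. Mrps18c had an isotype mean of 33.7 RPKM and log2 fold changes of -1.82 ± 1.36, -1.32 ± 1.36 and -1.94 ± 1.36 for the same 3 comparisons in the authors' deposited tables. The isotype libraries held 822, 847 and 1314 reads of Mrps18c, an even spread for this family. In isotype cells Mrps18a thus lay below both paralogs in RPKM, a level per exon length.

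Mrpl55, Mrpl45 and Mrps31 had their calls with single antibodies. Mrpl55 (11:59202486-59206134) had 575, 135 and 619 reads in the anti-CTLA-4 libraries and 362, 268 and 247 in the anti-PD-1 DANA libraries, and 2, 3 and 4 in the Combo libraries. Isotype cannot exceed the Combo table's larger mean of 0.0954 RPKM in the authors' deposited table, so every anti-CTLA-4 and anti-PD-1 DANA library was far above Combo and the isotype mean. Mrpl55 means of 19.8 RPKM in anti-CTLA-4 and 10.5 RPKM in anti-PD-1 DANA in the authors' deposited tables were 208 and 110 times that limit. Its log2 fold changes were 7.62 ± 1.79 under anti-CTLA-4 (false discovery rate 0.00675), 6.83 ± 1.79 under anti-PD-1 DANA (0.0188) and 0.74 ± 1.85 under Combo (1) in the authors' deposited tables. The difference, Combo minus anti-CTLA-4, was -6.88 on the log2 scale. With an upper bound for its error (2.57) it did not pass a two-sided normal test adjusted over all tested genes (false discovery rate 0.482). By that test 0 of 77 members passed in any pair of treatments, beside 0.0561% of tested genes for Combo minus anti-CTLA-4, 0.0393% for Combo minus anti-PD-1 DANA and 0.0% for anti-CTLA-4 minus anti-PD-1 DANA. With equal variances of the group means, a setting chosen after seeing the data, 2 of 77 members passed for Combo minus anti-CTLA-4 (Mrpl55 and Mrpl27), beside 1.98% of tested genes. That setting passed 1 member for Combo minus anti-PD-1 DANA (Mrpl27), beside 1.26% of tested genes, and 0 for anti-CTLA-4 minus anti-PD-1 DANA, beside 0.0168%. It was used only where a gene's 3 implied standard errors agreed within 5%, which held for 98.7% of members and 57.4% of tested genes. All other genes kept the upper bound, so the 2 kinds of share cannot be compared directly.

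Mrpl45 (11:97315716-97329920), which lines the exit tunnel and ties the ribosome to the inner membrane, had 973, 409 and 359 reads in the anti-CTLA-4 libraries, 414, 864 and 622 in anti-PD-1 DANA and 179, 2 and 14 in Combo. All 6 single-antibody libraries exceeded all 3 Combo libraries. How often tested genes separate in this way is not known, because reads were recovered for members only. In the authors' deposited tables its log2 fold changes were 6.42 ± 1.64 under anti-CTLA-4 (false discovery rate 0.0150), 6.38 ± 1.64 under anti-PD-1 DANA (0.0167) and 3.21 ± 1.65 under Combo (0.598). Mrps31 (8:22411361-22429665), a small subunit protein, had 291, 129 and 337 reads in anti-CTLA-4, 236, 97 and 3 in anti-PD-1 DANA and 28, 91 and 1 in Combo. Reads of Mrps31 were thus even in anti-CTLA-4, while anti-PD-1 DANA and Combo each had a library with almost none. Its call was under anti-CTLA-4 at 7.75 ± 2.10 (false discovery rate 0.0241), beside 6.38 ± 2.10 under anti-PD-1 DANA (0.0967) and 5.50 ± 2.10 under Combo (0.173) in the authors' deposited tables.

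**Figure D2:**
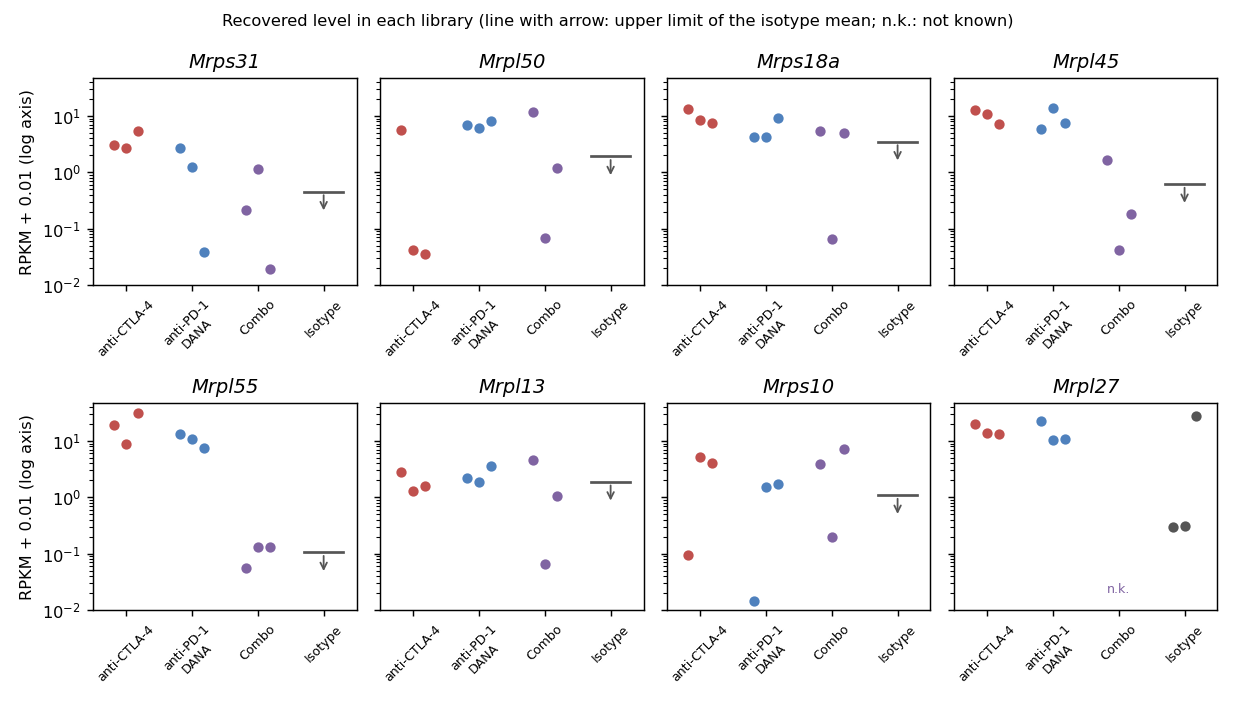
Recovered level of 8 called members in each library, in RPKM plus 0.01 on a log axis, with each point a library and a line with an arrow for the upper limit of the isotype mean. For Mrpl55 the 6 single-antibody libraries lie far above the 3 Combo libraries. Mrpl50, Mrps18a, Mrpl13, Mrps10, Mrpl45 and Mrps31 each have a Combo library far below their highest Combo library.

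Mrpl50 and Mrpl36, of the large subunit, rose in anti-PD-1 DANA and Combo. Mrpl50 (4:49512596-49521093) had 354, 1 and 1 reads in anti-CTLA-4, 393, 308 and 553 in anti-PD-1 DANA and 1056, 3 and 80 in Combo. Its reads were even in anti-PD-1 DANA and came mostly from a single library in anti-CTLA-4 and in Combo. Log2 fold changes of Mrpl50 were 5.04 ± 1.95 under anti-CTLA-4 (false discovery rate 0.209), 6.97 ± 1.94 under anti-PD-1 DANA (0.0318) and 6.99 ± 1.94 under Combo (0.0191) in the authors' deposited tables. Mrpl36 (13:73331009-73332175), the mitochondrial form of a very short protein of bacterial ribosomes, had means of 41.2 RPKM in anti-PD-1 DANA and 36.6 RPKM in Combo in the authors' deposited tables, and at most 18.9 RPKM in isotype. It had log2 fold changes of 4.47 ± 1.42 under anti-CTLA-4 (false discovery rate 0.0749), 5.75 ± 1.42 under anti-PD-1 DANA (0.0119) and 6.28 ± 1.42 under Combo (0.00224) in the authors' deposited tables. No whole reads could be recovered for Mrpl36, so its spread between libraries is not known.

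Mrpl48, Mrpl13 and Mrps10 rose in Combo, with positive values in the other 2 comparisons that did not pass. Mrpl48 (7:100545751-100608301) had a log2 fold change of 7.03 ± 1.72 under Combo (false discovery rate 0.00563), beside 5.36 ± 1.72 under anti-CTLA-4 (0.0811) and 4.85 ± 1.72 under anti-PD-1 DANA (0.144) in the authors' deposited tables. The mean of Mrpl48 was 3.20 RPKM in Combo and at most 1.15 RPKM in isotype in the authors' deposited tables. Its reads per library could not be recovered. Mrps10 (17:47368887-47381417), of the small subunit, had 20, 616 and 630 reads in anti-CTLA-4, 1, 292 and 450 in anti-PD-1 DANA and 1324, 37 and 1838 in Combo. In each treated group, 1 Mrps10 library was thus far below its other 2. In the authors' deposited tables Mrps10 had 6.04 ± 1.63 under Combo (false discovery rate 0.0147), beside 4.86 ± 1.63 under anti-CTLA-4 (0.106) and 3.53 ± 1.63 under anti-PD-1 DANA (0.437). Mrpl13 (15:55534094-55557748) had 658, 148 and 241 reads in anti-CTLA-4, 457, 353 and 914 in anti-PD-1 DANA and 1526, 11 and 265 in Combo. Its log2 fold changes in the authors' deposited tables were 5.42 ± 1.58 under Combo (false discovery rate 0.0287), 4.60 ± 1.58 under anti-CTLA-4 (0.120) and 5.14 ± 1.58 under anti-PD-1 DANA (0.0661). Centred at tested genes of the same level, the Combo call of Mrpl13 was lost (5.05, false discovery rate 0.05002). The Combo calls of Mrpl50, Mrpl13 and Mrpl27 rest on a larger mean that came 80% or more from 1 library, which for Mrpl27 is an isotype library.

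Mrpl27 and Mrpl49, both of the large subunit, fell in Combo, and these were the 2 members called lower. Mrpl27 (11:94653767-94660089), whose bacterial counterpart reaches toward the peptidyl transferase centre, had 573, 204 and 245 reads in anti-CTLA-4 and 596, 248 and 339 in anti-PD-1 DANA, against 7, 7 and 881 in isotype. The isotype mean of 9.27 RPKM in the authors' deposited table thus came almost whole from 1 library, while the single-antibody libraries were even. Its log2 fold change under Combo was -6.33 ± 1.74 (false discovery rate 0.0173), beside -0.28 ± 1.69 under anti-CTLA-4 and -0.26 ± 1.69 under anti-PD-1 DANA (1 each), in the authors' deposited tables. Mrpl49 (19:6053630-6057751) had an isotype mean of 16.4 RPKM and log2 fold changes of -7.45 ± 1.82 under Combo (false discovery rate 0.00563), -2.33 ± 1.79 under anti-CTLA-4 and -2.11 ± 1.79 under anti-PD-1 DANA (1 each) in the authors' deposited tables. Reads could not be recovered for Mrpl49. With the upper-bound error, differences between treatments did not pass for either gene: Combo minus anti-CTLA-4 was -6.05 for Mrpl27 and -5.11 for Mrpl49 on the log2 scale, and Combo minus anti-PD-1 DANA was -6.07 and -5.34 for the same genes.

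Of the 12 called members, Mrpl48, Mrpl3, Mrpl27, Mrpl45, Mrpl13, Mrps18a and Mrpl49 overlap another listed gene, as do 39 of 77 members in all. Whether reads were counted by strand is not given in the sources used here, so the values of these genes are uncertain to that extent. Examples are Mrpl27 with Eme1, Mrps18a with Rsph9 and Mrpl49 with Syvn1, each on opposite strands.

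**Figure D3:**
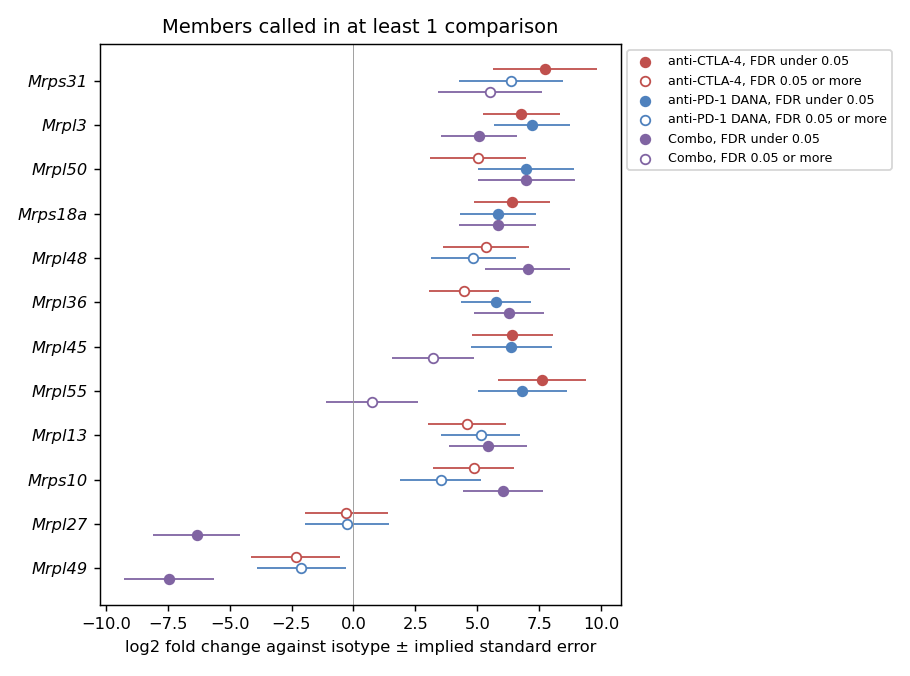
Log2 fold change with its implied standard error for the 12 members called in at least 1 comparison, in each treatment against isotype, from the authors' deposited tables. Of the 12, 10 have a call on the higher side and 2, Mrpl27 and Mrpl49, on the lower side in Combo.

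Of the 12 members with the highest larger mean, averaged over the 3 tables, 11 did not pass in any comparison of the authors' deposited tables, and the exception was Mrpl36. Mrps16, a small subunit protein, had an isotype mean of 75.8 RPKM and log2 fold changes of -1.19 ± 1.12 under anti-CTLA-4, -1.36 ± 1.12 under anti-PD-1 DANA and -0.22 ± 1.12 under Combo in the authors' deposited tables. Mrpl42 had larger means of 50.7, 72.5 and 58.0 RPKM and log2 fold changes of -0.59 ± 1.30, 0.06 ± 1.30 and 0.45 ± 1.30 under anti-CTLA-4, then anti-PD-1 DANA, then Combo in the authors' deposited tables. Mrpl10, which anchors the stalk that recruits elongation factors, had an isotype mean of 51.4 RPKM and log2 fold changes of -2.39 ± 1.37, -2.14 ± 1.37 and -3.23 ± 1.37 in the same order in the authors' deposited tables (false discovery rates 0.823, 1 and 0.293). Mrpl12, Mrps22, Mrpl22 and Mrpl46 are named below after their values were seen. Mrpl12, the stalk partner of Mrpl10, had 1152, 620 and 1632 reads in anti-PD-1 DANA, against 1391, 947 and 11 in isotype. Mrps21 had 1343, 582 and 471 reads in anti-CTLA-4 and 1104, 552 and 949 in anti-PD-1 DANA, against 411, 465 and 208 in isotype. Per library size and exon length this was 49.4 RPKM in anti-CTLA-4 and 42.3 RPKM in anti-PD-1 DANA, against 19.2 RPKM in isotype, in the authors' deposited tables. Its log2 fold changes were 0.46 under anti-CTLA-4, 0.35 under anti-PD-1 DANA and -0.25 under Combo in the authors' deposited tables, and none was called. Mrps12, a protein of the decoding centre of the small subunit, had 557, 954 and 1019 reads in anti-CTLA-4, against 13, 1646 and 1554 in isotype. A single isotype split was thus far below the other libraries, and the log2 fold changes were -0.81 under anti-CTLA-4, -1.09 under anti-PD-1 DANA and -0.85 under Combo in the authors' deposited tables.

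Among further abundant members, Mrps24, Mrpl41 and Mrpl52 had their largest log2 fold change in Combo, without a call. Mrps24 had 1229, 374 and 313 reads in anti-CTLA-4, 918, 1412 and 1585 in anti-PD-1 DANA and 2928, 238 and 3694 in Combo. The Combo libraries of Mrps24 thus span the reads of the other 2 groups. Its log2 fold changes were -0.43 ± 1.27 under anti-CTLA-4, 0.45 ± 1.27 under anti-PD-1 DANA and 1.64 ± 1.27 under Combo in the authors' deposited tables. Mrpl41 had 124, 233 and 1004 reads in anti-CTLA-4, 855, 250 and 638 in anti-PD-1 DANA and 1595, 919 and 1431 in Combo. Its reads were even in Combo, with log2 fold changes of 0.63 ± 1.40 under anti-CTLA-4, 0.57 ± 1.40 under anti-PD-1 DANA and 2.23 ± 1.40 under Combo in the authors' deposited tables. Mrpl52 likewise had -0.53 ± 1.26, 0.22 ± 1.26 and 1.37 ± 1.26 in this order in the authors' deposited tables. Mrpl40 and Mrpl28 had isotype means of 39.3 and 37.6 RPKM in the authors' deposited tables. Mrpl40 had log2 fold changes of -1.63 ± 1.37, -0.99 ± 1.37 and -1.51 ± 1.37, and Mrpl28 of -0.73 ± 1.19, -2.88 ± 1.19 and -0.73 ± 1.19, again in this order, in the authors' deposited tables. At 44.7 RPKM in anti-CTLA-4, against 37.6 RPKM in isotype, Mrpl28 was higher in RPKM and lower by its log2 fold change in the authors' deposited table. Mrps35, Mrpl44 and Mrps30 were picked for their spread after their values were seen. Mrps35 had 628, 449 and 450 reads in anti-CTLA-4 and 1375, 483 and 923 in anti-PD-1 DANA, and 13, 89 and 11 in Combo, and isotype is limited to 0.165 RPKM by the authors' deposited tables. All 6 single-antibody libraries of Mrps35, picked for this spread, were thus above the 3 Combo libraries. Reads were recovered for members only, so no share over all tested genes stands beside such a separation. Its log2 fold changes of 3.62 ± 1.56 under anti-CTLA-4 (false discovery rate 0.331), 4.17 ± 1.56 under anti-PD-1 DANA (0.180) and 0.28 ± 1.56 under Combo (1) did not pass in the authors' deposited tables. Mrpl44, a protein with a ribonuclease III fold, had 970, 549 and 641 reads in anti-CTLA-4, against 27, 161 and 2100 in isotype. Its mean came evenly from the anti-CTLA-4 libraries and almost wholly from 1 isotype library. Mrps30 had an isotype mean of 26.7 RPKM and log2 fold changes of -4.21 ± 1.62 under anti-CTLA-4 (false discovery rate 0.208), -1.93 ± 1.62 under anti-PD-1 DANA and -1.08 ± 1.62 under Combo in the authors' deposited tables. The lowest member by level was Mrps22, with 0, 22 and 0 reads in anti-PD-1 DANA and 0, 4 and 47 in Combo, against 0, 16 and 0 in isotype. Its log2 fold change of -6.37 ± 3.25 under anti-CTLA-4 (false discovery rate 0.596) had the widest error of the family in the authors' deposited tables.

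Many members were uneven between the splits of 1 pool. Where reads were recovered, 3 of 32 members (9.38%) drew 80% or more of their mean from 1 library in anti-CTLA-4, 2 of 32 (6.25%) in anti-PD-1 DANA, 8 of 25 (32.0%) in Combo and 8 of 21 (38.1%) in isotype. The median share of the top library was 50.9% in anti-CTLA-4, 51.2% in anti-PD-1 DANA, 63.8% in Combo and 77.6% in isotype. Mrpl22 is an extreme case, with 0, 1 and 2365 reads in the isotype libraries. Mrpl46 had 45, 226 and 784 reads in anti-CTLA-4 and 1105, 3 and 1502 in Combo, against 6, 4 and 1273 in isotype. A mean is known only where its group is the larger of the 2, so the isotype members counted here are those that were high in isotype. Members with 10 reads or fewer numbered 9 of 25 in the Combo library of 24594651 reads, beside 3 and 2 of 25 in its other libraries. They numbered 7, 6 and 2 of 21 in the isotype libraries of 24512669, 23973359 and 32867235 reads. The part of this unevenness in the calls was not tested beyond leaving out members that rest on 1 library, which left 5 calls of 70 members (7.14%) under anti-CTLA-4, 6 of 70 (8.57%) under anti-PD-1 DANA and 6 of 63 (9.52%) under Combo, 5 higher and 1 lower. The other tested genes were not filtered in this way, so no share over all genes stands beside these. The 35 members without recovered reads could not be checked and were all kept. Among the Combo calls left, Mrpl3, Mrpl36, Mrpl48 and Mrpl49 were kept in this way, so whether they rest on 1 library is not known.

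**Figure D4:**
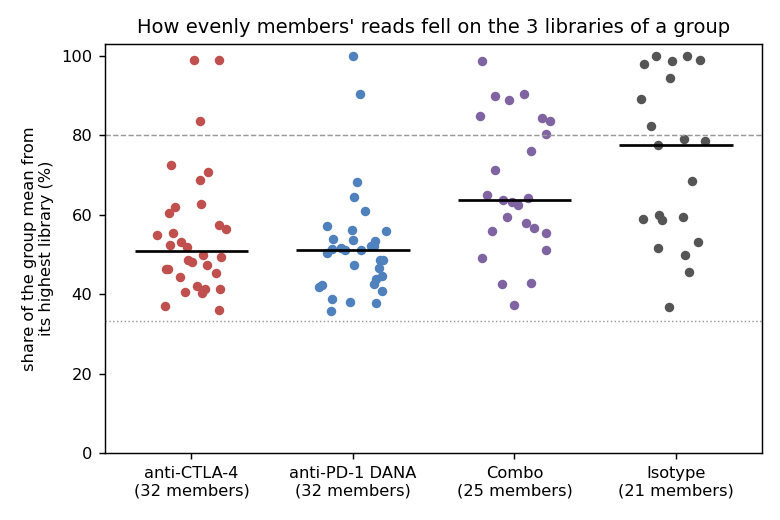
Share of a member's mean that came from its top library, in percent, for members with recovered reads in each group. The median is 50.9% in anti-CTLA-4, 51.2% in anti-PD-1 DANA, 63.8% in Combo and 77.6% in isotype.

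Counts for other genes of the mitochondrial translation system stand beside 4.23%, 3.75% and 7.53% of all tested genes called under anti-CTLA-4, then anti-PD-1 DANA, then Combo in the authors' deposited tables. The list of mitoribosome proteins under other names held 7 genes, Oxa1l among them, which binds the ribosome and is not part of it. Of these 7, 1 rose in each comparison of the authors' deposited tables. This was Ict1, a peptidyl-tRNA hydrolase built into the large subunit. It had 5.37 ± 1.40 under anti-CTLA-4 (false discovery rate 0.0177), 5.59 ± 1.40 under anti-PD-1 DANA (0.0138) and 5.22 ± 1.40 under Combo (0.0139) in the authors' deposited tables. The medians of these 7 were -0.39 under anti-CTLA-4, -0.45 under anti-PD-1 DANA and 0.32 under Combo in the authors' deposited tables. Of 13 translation factors, Gfm1, the elongation factor that moves the ribosome along, rose by 6.64 ± 1.89 under anti-CTLA-4 and 6.96 ± 1.89 under anti-PD-1 DANA in the authors' deposited tables. In Combo Gfm1 had 4.70 ± 1.89 and did not pass, while the release factor gene Mtrf1l (-7.02 ± 2.04) and Taco1 (-8.87 ± 2.13), an activator of COX1 translation, fell in the authors' deposited table. Among 26 genes of ribosome assembly and rRNA maturation, the authors' deposited tables called 1 higher (Fastkd2) and 1 lower (Trub2) under anti-CTLA-4, 0 under anti-PD-1 DANA, and 2 higher (Mterf4, Mtg1) and 2 lower (Rpusd4, Eral1) under Combo. In the same order of treatments, the list medians were -0.41, -1.32 and -0.53 for translation factors and -0.35, -0.76 and -0.59 for assembly and maturation in the authors' deposited tables. Eral1, a GTPase that binds the small subunit rRNA, had -7.34 ± 1.74 under Combo in the authors' deposited table.

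Transcription of mitochondrial DNA, with 7 genes, had calls under Combo in the authors' deposited tables and none in the others, with the elongation factor Tefm higher (8.76 ± 2.53) and the polymerase Polrmt lower (-8.56 ± 1.69). The difference from the other comparisons was not tested for this list. A list of 22 aminoacyl-tRNA genes held synthetases and the amidotransferase genes Qrsl1, Gatb and Gatc. Of these 22, 3 were higher and 2 lower under anti-CTLA-4 (4.23% of all tested genes called) in the authors' deposited table. Under anti-PD-1 DANA 1 was higher and 1 lower (3.75%), and under Combo 5 were higher and 1 lower (7.53%), in the authors' deposited tables. The medians were 0.14, -1.39 and 0.70 for transcription, in the same order of treatments, in the authors' deposited tables. For the 22 aminoacyl-tRNA genes they were 0.42, 1.48 and 1.11 in the authors' deposited tables. Nars2 was called higher under anti-CTLA-4 and Combo (6.53 ± 1.76 and 5.85 ± 1.76), and Qrsl1, part of the enzyme that makes glutaminyl-tRNA, under anti-CTLA-4 and anti-PD-1 DANA (7.28 ± 2.06 and 8.03 ± 2.06), in the authors' deposited tables. Lars2, the gene of the leucyl-tRNA synthetase, fell under each single antibody and rose under Combo in the authors' deposited tables, at -2.46 ± 0.33 under anti-CTLA-4, -1.49 ± 0.33 under anti-PD-1 DANA and 2.04 ± 0.33 under Combo. Among the 22 aminoacyl-tRNA genes the highest larger mean was 745 RPKM for each single antibody and 3323 RPKM for Combo in the authors' deposited tables. Which transcripts the reads counted for Lars2 come from was not tested. The mitochondrial rRNA genes themselves, mt-Rnr1 and mt-Rnr2, were not tested by the authors.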

How the data were processed

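RNA of 12 libraries was amplified from 0.25 ng with 21 cycles by a Smart-seq2-type protocol and sequenced on an Illumina HiSeq instrument, per the labels' protocols. The labels' protocols name CLC Genomics Workbench for alignment and quantification, and the submitters' processing notes name GRCm38.p5. For the program's version, its annotation and its statistical model, the entry is: not given in the sources used here. There are 3 deposited comparison tables, with no values per library. The RPKM values deposited by the authors were made by scaling read counts by exon length and library size and averaging the libraries of a group, and the larger of the 2 group means is given (unit read from the values). A log2 fold change and a signed linear fold change were deposited by the authors, and both are positive where treated cells are higher. The p-value, false discovery rate and Bonferroni p-value are also the authors' deposited values, and their false discovery rate is a Benjamini-Hochberg adjustment over all 48709 listed genes, of which 17833 have a test.

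Taking the test to be a Wald test, the size of a log2 fold change was divided by the normal quantile of its p-value to give an implied standard error. A mean shared by tables is the isotype mean. Low means, given to 10 decimals, are made of whole reads divided by exon length and library size, which gave library sizes (14729713 to 42556869 reads) and reads per library with GENCODE M21 exon lengths. This solved 82 of 100 member means, against 2 of 100 with a length off by 1 base. Library numbers are names only and cannot be tied to labelled replicates. These reads differ between splits by more than counting error, as for Mrpl22 in isotype (0, 1 and 2365), and PCR copies are not independent molecules. Differences between treatments were tested as differences of log2 fold changes, with summed squared errors as an upper bound, Benjamini-Hochberg adjusted over tested genes. For 39 of 77 members another listed gene overlaps, and strand use in counting is not given, so such reads may be shared. Coordinates are the files' own, and 63 of 77 members had the same ones in GENCODE M21. Promoters are from RefSeq (GRCm38.p6), and the NRF1 motif was shortened to 8 letters after a form of 10 letters, found in fewer promoters, had been searched.

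Members named are those called in any comparison, the 12 with the highest larger mean (averaged over the 3 tables) and the 4 with the largest change in each comparison; Mrps18b, Mrps35, Mrpl44, Mrps30, Mrpl12, Mrps22, Mrpl22 and Mrpl46 were added after their values were seen, as were Mrpl30, for its error, and Mrpl32, for its neighbour. The members and lists were chosen with earlier results of these data known. Alternatives were other adjustments, minimum means of 1 and 5 RPKM, centring at the median of tested genes (all, or in 20 bins of level), library size scaling, and removal of members resting 80% or more on 1 library. That removal could reach only members with recovered reads. Scripts used Python 3.11.15, numpy 2.4.6, pandas 2.3.3, scipy 1.17.1 and matplotlib 3.10.9, and were tested on simulated data.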

Additional observations from a re-analysis of the deposited data

Results flagged for a closer look

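Mrpl55 and Mrpl27 were flagged for differences between treatments, in a two-sided normal test with Benjamini-Hochberg adjustment over all tested genes. They pass where the group means are taken to have equal variances, a setting chosen after seeing the data, and not with the upper bound of the error. For Mrpl55, Combo minus anti-CTLA-4 was -6.88 on the log2 scale, from 0.74 for Combo and 7.62 for anti-CTLA-4 in the authors' deposited tables. Its false discovery rate was 0.0179 with equal variances (SE 1.82) and 0.482 with the upper bound (SE 2.57). Reads of Mrpl55 were 2, 3 and 4 in the Combo libraries, against 575, 135 and 619 in the anti-CTLA-4 libraries. For Mrpl27, Combo minus anti-CTLA-4 was -6.05 and Combo minus anti-PD-1 DANA -6.07, with false discovery rates of 0.0326 and 0.0394 under equal variances and of 0.519 and 0.663 with the upper bound. Reads of Mrpl27 in Combo are not known. Adjusted over all 48709 listed genes instead, the equal-variance values were 0.0490 for Mrpl55, and 0.0890 and 0.108 for the 2 differences of Mrpl27. Under equal variances, Mrpl55 and Mrpl27 of the 77 members passed for Combo minus anti-CTLA-4, beside 1.98% of tested genes. For Combo minus anti-PD-1 DANA only Mrpl27 passed, beside 1.26% of tested genes. Equal variances were used only where a gene's 3 implied standard errors agreed within 5%. This held for 76 of 77 members (98.7%) and for 57.4% of tested genes. The other genes kept the upper bound, so the shares of members and of tested genes cannot be compared directly.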

How the results depend on the processing

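The 5 member calls for anti-CTLA-4 (6.49%, beside 4.23% of all tested genes) became 9 (11.7%) when p-values were adjusted over tested genes (9.06% of all tested genes), 9 when fold changes were centred at the median of tested genes (6.14%), 9 under library size scaling (7.67%), and 11 of 76 (14.5%) among genes with a larger mean of at least 1 RPKM (21.2%). The 6 calls for anti-PD-1 DANA (7.79%, beside 3.75%) became 10 of 76 (13.2%) with that minimum (20.7%). Bonferroni p-values in the authors' deposited tables left 0 member calls in each comparison (27, 34 and 74 of all tested genes), while 15, 16 and 18 members had an unadjusted p under 0.05 in the anti-CTLA-4 table, the anti-PD-1 DANA table and the Combo table. Differences between treatments gave 0 calls in members with the upper-bound error in every pair, also when adjusted over all listed genes. Under equal variances they gave 2 for Combo minus anti-CTLA-4 (Mrpl55 and Mrpl27, beside 1.98% of tested genes) and 1 for Combo minus anti-PD-1 DANA (Mrpl27, beside 1.26%). Equal variances were used for 98.7% of members and 57.4% of tested genes. Library size scaling moved the share of higher calls among all tested genes to 86.9% for anti-CTLA-4 and 86.4% for anti-PD-1 DANA, beside 64.7% and 64.9% in the authors' deposited tables. The cause was not tested. Of 51 summary values 41 stayed within the limits set (a factor of 1.5 for counts) and 10 moved; of 524 values of single genes 22 lost a call, 28 gained one and 0 changed sign while called. The median for anti-CTLA-4, -0.51, was positive under each centring and as a weighted mean (0.11 to 0.44), that for anti-PD-1 DANA was 0.05 without members resting on 1 library, and that for Combo was -0.26 at a minimum of 5 RPKM. No paired analysis was possible because the tables hold no values per library, and leaving out each replicate was not run for the same reason. Members with few reads, such as Mrps22, allow no statement on a difference at this depth.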
